A study of Rattus norvegicus with 11 samples.

Results

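The factors that build ribosomes were followed in the ileum of rats with severe acute pancreatitis (SAP), with and without JZL184, an inhibitor of monoacylglycerol lipase, the enzyme that breaks down the endocannabinoid 2-arachidonoylglycerol. The set held 55 genes for nucleolar and ribosome assembly proteins and the regulator Myc, with no ribosomal protein among them, and its members were taken by gene symbol. All 55 were found among the 24481 genes with reads and among the 24205 genes with FPKM, fragments scaled to gene length and library size. The 11 libraries came from ileum of male SD rats aged 6 to 8 weeks. The control group (3 libraries, called control plasmid in the labels) received the vehicle of saline, ethanol and Tween-80 into the abdominal cavity. The SAP group (4 libraries, titled oil) had 3% sodium taurocholate injected into the pancreatic duct, at 0.1 ml per 100 g, and 24 h after this surgery the same vehicle. The JZL184 group (4 libraries) had the same pancreatic injection and then 10 mg/kg of JZL184, and ileum of every group was taken 24 h after the vehicle or drug. The sources used here describe no sham operation of the controls and no JZL184 without SAP, so the surgery, the pancreatitis and the injected bile salt cannot be told apart in a comparison with the controls.

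Ribosome production starts in the nucleolus, where RNA polymerase I copies the ribosomal DNA into a long precursor RNA. Small nucleolar RNPs (snoRNPs), in which a guide RNA is bound by a few proteins, methylate the precursor or convert its uridines to pseudouridine, and large assemblies of processing factors, helicases and GTPases cut it and fold it into the small and the large subunit. Myc is known to drive genes at each of these steps, and in the ileum the demand for ribosomes is known to be high in the dividing cells of the crypts.

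Between 26341299 and 33847135 reads lay on genes in each library, and the members held between 117 and 129861 reads in a library. Over genes, the chi-square of the difference in reads averaged 2.81 per gene between control libraries 1 and 2, against 77.5 to 563 for the other pairs within a group. They differed by little more than the sampling noise and were counted as 1 sample, which left 2 control samples. SAP libraries 1 and 2 stood apart from SAP libraries 3 and 4, with a chi-square per gene of 337 to 563 between the pairs and 85.5 and 99.1 within them. SAP library 2 also held 20 reads on 3 Y-linked genes, where the other libraries held 1222 to 4665, although all rats were described as male. The labels name both ileum tissue and intestinal epithelial cells. The 10 epithelial markers summed to between 8317 and 27705 FPKM and the 8 smooth muscle markers to between 452 and 2696 FPKM, so the libraries held RNA of other cells of the gut wall as well. The labels give no batch, and p-values measure the spread between these libraries only.

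The levels of the members spread over 3 orders of magnitude in FPKM, a scale on which genes can be compared because it is per gene length. The nucleolar protein nucleolin (Ncl), which binds the precursor RNA, stood first with 1300 ± 138 FPKM (SD) in the 2 control samples. The histone and ribosome chaperone nucleophosmin (Npm1) followed with 347 ± 93.9, then the pseudouridine synthase Dkc1 with 286 ± 3.39 and the pre-large-subunit factors Ebna1bp2 with 260 ± 13.8 and Pes1 with 237 ± 40.3. Npm1 did not differ from Dkc1 beyond its spread, and neither did Ebna1bp2 from Pes1. The lowest were Utp15, a small subunit processome protein, with 1.05 ± 0.202, and Polr1b, one of the catalytic subunits of RNA polymerase I, with 1.50 ± 0.180. Summed over the 55 members, the level was 4091 ± 224 FPKM in the controls, 3974 ± 228 in SAP and 4611 ± 160 in JZL184. The SAP libraries had 3837 to 4313 and the JZL184 libraries 4372 to 4697, so those groups did not overlap on this scale. Ncl gave the largest share of these sums. The FPKM of all genes summed to 484256 and 494474 in SAP libraries 1 and 2 and to 596324 to 679911 in the others. As a share of these totals, the members overlapped between SAP and JZL184. SAP library 1 held 3837 of 484256, JZL184 library 2 held 4695 of 679911 and SAP library 4 held 3910 of 662890, in falling order. On counts scaled by library size and composition (TMM), the sums of SAP and JZL184 did not overlap. The median ratio of the members to their control means was 1.08 ± 0.113 in SAP (n = 4) and 1.14 ± 0.0574 in JZL184 (n = 4). In such bulk tissue, fewer cells of a type and less RNA per cell cannot be told apart. The heatmap of all members showed that the roles did not share 1 pattern.

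**Figure D1:**
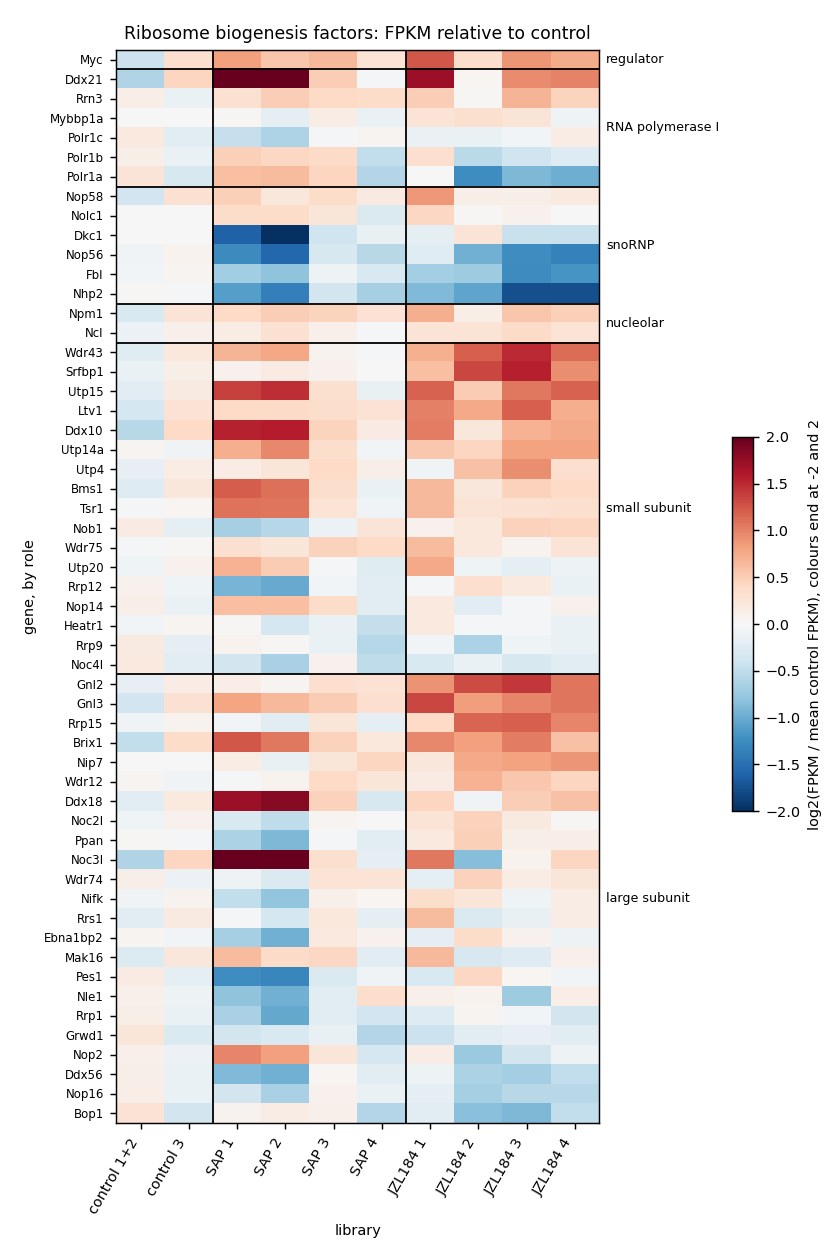
FPKM of each of the 55 genes (rows, by role) in each library (columns; control 1+2 is the mean of control libraries 1 and 2), as log2 of the ratio to the mean of the 2 control samples, with red above and blue below. SAP libraries 1 and 2 carried the strongest colours, red for Ddx21, Noc3l and Ddx18 and blue for Dkc1 and Nop56, whereas Gnl2, Srfbp1 and Rrp15 were near white in all SAP libraries and red in JZL184.

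SAP was first compared with control, which takes the surgery, the injected bile salt and the pancreatitis together. No member met both criteria, a Benjamini-Hochberg adjusted p below 0.05 in edgeR's quasi-likelihood test and a fold change above 2 or below 0.5, and neither did any of the 16029 genes tested (0.0%). At an unadjusted p below 0.05, 0 members were higher, where 5.69% of all genes were, and 1 was lower, where 3.4% were. DESeq2, which called 1.23% of all genes, and limma-voom, which called 0.0873%, called 0 members. The median log2 fold change of the members was 0.01, beside 0.06 over all genes tested, and 28 of the 55 were positive. On counts normalized by library size and composition (TMM), all SAP libraries lay above both controls for 1 member (Gnl3), with 11.3% of all genes, and below both for 9, with 11.9%. Those 9 were Dkc1, Fbl, Nhp2, Nop56, Heatr1, Rrp12, Noc2l, Ppan and Rrp1, so the members' share was above that of all genes on the lower side and below it on the higher side. Without SAP libraries 1 and 2, it was 8 higher, with 18.1% of all genes, and 11 lower, with 17.5%. Single libraries moved these numbers as well, to 12 higher and 19 lower without control library 3, 10 and 14 without SAP library 4, and 1 and 15 without SAP library 3, and the shares of all genes were then 28.1% and 26.9%, 20.9% and 21.7%, and 15.6% and 16%. Without control libraries 1 and 2 it was 4 higher and 13 lower, with 18.7% and 17.2% of all genes. Without SAP library 1 it was 3 and 9, with 12.4% and 12.8%, and without SAP library 2 it was 2 and 9, with 12.6% and 12.8%. On the higher side the members' share was below that of all genes in each of these.

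The lowest fold changes were those of 3 of the 6 snoRNP proteins, Nhp2, Nop56 and Dkc1, the last at -0.96 (SE 0.57, adjusted p in edgeR 0.463). Nhp2, which with Dkc1 forms the core of the pseudouridylation snoRNPs, had 161 and 155 FPKM in the control samples and 73.5, 61.0, 122 and 99.8 in SAP libraries 1 to 4. Every SAP library was below both controls, and libraries 1 and 2 were lowest. Its log2 fold change was -0.98 (SE 0.37), the only one of a member at an unadjusted p below 0.05, and its adjusted p in edgeR was 0.459. The two-sided exact permutation p of the FPKM was 0.0667, the smallest that 4 against 2 samples allow.

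Nop56, a core protein of the methylation snoRNPs, had 135 and 148 FPKM in the controls and 58.4, 47.9, 114 and 96.7 in SAP, again without overlap and lowest in SAP libraries 1 and 2. Its log2 fold change was -0.98 (SE 0.43, adjusted p in edgeR 0.459). Fbl (fibrillarin), the methyltransferase of the same particles, had 87.6 and 94.7 FPKM in the controls and 56.4, 52.1, 85.0 and 73.7 in SAP. All of its SAP values lay below the controls, by little in library 3, and the log2 fold change was -0.60 (SE 0.33, adjusted p 0.460). Nop58, the partner of Nop56, did not share this, with 44.9 and 72.7 FPKM in the controls and 66.4 to 81.4 in SAP, and a log2 fold change of 0.16 (SE 0.29, adjusted p 0.780). Summed over the 6 snoRNP proteins the level was 769 and 816 FPKM in the controls and 437, 375, 680 and 643 in SAP. Without SAP libraries 1 and 2, the log2 fold changes were -0.58 for Nhp2, -0.49 for Nop56 and -0.27 for Fbl.

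The highest fold changes were those of Ddx21, an RNA helicase that acts on ribosomal DNA transcription and snoRNAs, and Noc3l, a pre-large-subunit factor. Ddx21 had 3.39 and 6.93 FPKM in the controls and 31.1, 42.1, 7.29 and 5.06 in SAP. SAP libraries 1 and 2 stood far above all others, and library 4 lay between the controls. Its log2 fold change was 1.84 (SE 0.86, adjusted p in edgeR 0.459), and 0.20 without SAP libraries 1 and 2.

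Noc3l had 1.71 and 3.49 FPKM in the controls and 13.5, 14.8, 3.25 and 2.27 in SAP, so that SAP libraries 3 and 4 lay between the control samples. Its log2 fold change was 1.50 (SE 0.79, adjusted p 0.459), and 0.03 without SAP libraries 1 and 2. Ddx10, a helicase of the small subunit pathway, had 10.4 and 19.9 FPKM in the controls and 43.9, 45.0, 20.6 and 17.1 in SAP, with a log2 fold change of 0.88 (SE 0.47, adjusted p 0.459) and 0.26 without both libraries. Each of these 3 fold changes rested on the same pair of rats.

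In SAP libraries 1 and 2 and JZL184 library 1 the ratio of a member to the controls went with its length. Across the 55 members, Spearman's rho between the FPKM ratio and the gene length (reads per FPKM) was 0.49 in SAP library 1 and 0.52 in SAP library 2, where it was 0.24 and -0.08 in SAP libraries 3 and 4. In JZL184 libraries 1 to 4 it was 0.41, 0.011, 0.19 and 0.14. Across 11975 genes it was 0.52 and 0.52 in SAP libraries 1 and 2, 0.17 and -0.00079 in SAP libraries 3 and 4, and 0.31, 0.012, 0.16 and 0.21 in the JZL184 libraries, so the members were near all genes in this. The values describe single libraries, the genes of a library are not independent replicates, and all share that library's RNA. Nhp2, the shortest member, was low and the longer Ddx21 and Noc3l were high, but Dkc1 and Nop56, near the length of Ddx18, went the other way from it. The trend on length was then taken out of each library with offsets. With these offsets the log2 fold change was -0.58 for Nhp2, -0.91 for Nop56, -0.88 for Dkc1 and -0.32 for Fbl. It was 1.48 for Ddx21 and 1.25 for Noc3l.

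**Figure D2:**
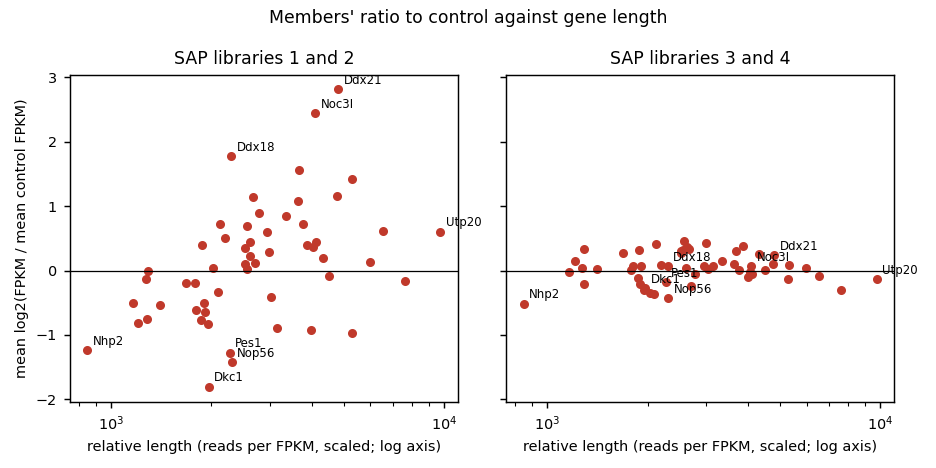
Mean log2 ratio of FPKM to control (vertical axis) of each member against its relative length (horizontal log axis, reads per FPKM scaled over libraries), for SAP libraries 1 and 2 on the left and 3 and 4 on the right; each point is a gene. Points on the left climb from Nhp2, Dkc1, Pes1 and Nop56 to Ddx21 and Noc3l, and points on the right stay near 0.

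The RNA polymerase I genes other than Ddx21 differed less from the controls. Polr1a, the largest subunit, had 6.08 and 4.10 FPKM in the controls and 7.72, 7.86, 6.85 and 3.39 in SAP, and the groups overlapped. The initiation factor Rrn3, which carries the polymerase to the promoter, had 5.45 and 4.54 FPKM in the controls and 6.16 to 6.99 in SAP. All SAP libraries were above both controls on this scale, by a log2 fold change of 0.21 (SE 0.28, adjusted p in edgeR 0.699), and the exact permutation p was 0.0667. Polr1b, with a log2 fold change of 0.05 (SE 0.35), and Polr1c, a subunit shared with RNA polymerase III, with -0.39 (SE 0.37), overlapped between the groups. The directions of Polr1a and Polr1b in SAP turned when SAP libraries 1 and 2 were left out, to -0.09 and -0.08.

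Myc, the transcription factor, had 3.56 and 6.06 FPKM in the controls and 8.51, 7.05, 7.58 and 5.81 in SAP. Its SAP libraries 1 to 3 were above both controls and library 4 was just below the higher one, at a log2 fold change of 0.43 (SE 0.32, adjusted p in edgeR 0.513) that ran from 0.15 to 0.77 when either control sample was left out. Ncl and Npm1 had log2 fold changes of -0.03 (SE 0.29) and 0.25 (SE 0.29). Of the factors that the study picked from these libraries, Gnl2 was at 0.05 (SE 0.28), Rrp15 at -0.20 (SE 0.28) and Srfbp1 at -0.08 (SE 0.27), and the direction of Gnl2 and Rrp15 depended on the settings. Among the small subunit factors Rrp12, which helps to export the subunit, was at -0.64 (SE 0.39) and Heatr1, a processome protein needed for precursor transcription, at -0.40 (SE 0.27). Of the large subunit factors Rrp1 was at -0.70 (SE 0.35) and Grwd1, a chaperone of a ribosomal protein, at -0.53 (SE 0.30), which ran from -0.82 to -0.16 when either control sample was left out.

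JZL184 was then compared with SAP, the comparison in which only the drug differed by design. The subunit assembly factors Srfbp1, Gnl2, Rrp15, Wdr43, Ltv1 and Gnl3 were higher in JZL184, by log2 fold changes of 0.66 to 1.24, and Polr1a, Noc3l and Ddx21 had fold changes below 0. Again 0 members and 0.0% of the 15308 genes tested met both criteria in edgeR. DESeq2, which called 6.98% of all genes, called 3 members, Gnl2, Srfbp1 and Rrp15, all of them higher, and limma-voom, which called 4.57%, called these and Wdr43. At an unadjusted p below 0.05 in edgeR, 9 members were higher, beside 10.3% of all genes, and 1 was lower, beside 11.1%. The median log2 fold change of the members was 0.28, beside -0.05 over all genes, and 40 of the 55 were positive. All JZL184 libraries lay above all SAP libraries for 11 members, where 6.23% of all genes did, and below them for 0, where 5.59% did. Without JZL184 library 1 these numbers were 17 and 1, with 13.3% and 13.1% of all genes, and without SAP library 4 they were 12 and 4, with 10.9% and 9.62%. The members with an unadjusted p below 0.05 and a higher level were 4 of the 17 small subunit factors (Srfbp1, Ltv1, Wdr43 and Rrp12) and 5 of the 23 large subunit factors (Gnl2, Rrp15, Gnl3, Ppan and Nip7). Those roles hold most of the 55 members, and the difference from the other roles was not tested.

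Srfbp1, the counterpart of a yeast factor of small subunit RNA processing, on chromosome 18, had 2.63 and 3.12 FPKM in the controls and 3.06, 3.23, 3.04 and 2.89 in SAP, a narrow range. In JZL184 libraries 1 to 4 it had 4.38, 7.26, 8.46 and 5.5, each above every other library. The log2 fold change was 1.24 (SE 0.27), with an adjusted p of 0.0851 in edgeR and 0.00334 in DESeq2, and the two-sided exact permutation p of the FPKM was 0.0286, the smallest that 4 against 4 allow. Without SAP libraries 1 and 2 it was 1.17.

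Gnl2, a GTPase that travels with the maturing large subunit, on chromosome 5, had 36.9 and 46.2 FPKM in the controls and 45.8, 43.4, 52.2 and 50.8 in SAP. In JZL184 it had 77.4, 103, 111 and 87.1, and the lowest of these exceeded the highest SAP value. The log2 fold change was 1.14 (SE 0.25, adjusted p 0.0851 in edgeR and 0.00258 in DESeq2), and 0.93 without SAP libraries 1 and 2. Rrp15, a large subunit processing factor, on chromosome 13, had 84.0 and 93.1 FPKM in the controls, 85.1, 76.3, 105 and 78.3 in SAP and 116, 198, 203 and 174 in JZL184. Library 1 was the lowest of the JZL184 group here too and still above all others, at a log2 fold change of 1.18 (SE 0.28, adjusted p 0.0909 in edgeR and 0.00815 in DESeq2). For Rrp15 it was 0.99 without SAP libraries 1 and 2 and 0.97 with the length offsets, both under the fold change of 2. Srfbp1, Gnl2 and Rrp15 were named by the study from these same libraries, and their values here are not independent evidence. With JZL184 library 1 left out, edgeR called these 3 and Wdr43, beside 4.21% of all genes. Without any one of the other libraries it called 0 members and at most 1 gene in all.

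Wdr43, a processome protein that joins early, on chromosome 6, had 17.5 and 23.8 FPKM in the controls and 33, 35.4, 21.6 and 20.2 in SAP. In JZL184 it had 33.8, 47.4, 58.4 and 44.7, of which library 1 lay below SAP library 2. The log2 fold change was 0.93 (SE 0.27, adjusted p in edgeR 0.120), and 1.20 without SAP libraries 1 and 2. Ltv1, an export factor of the small subunit, on chromosome 1, had 25.1 and 39.1 FPKM in the controls, 42.3, 41.9, 41.0 and 39.3 in SAP and 64.2, 54.4, 73.5 and 53 in JZL184. Its SAP libraries were close together and all of JZL184 was above them, at 0.73 (SE 0.20, adjusted p in edgeR 0.116, in DESeq2 0.0143). Gnl3 (nucleostemin), a GTPase known from stem cells, on chromosome 16, had 11.1 and 17.7 FPKM in the controls, 24.8, 22.6, 20.4 and 18.1 in SAP and 36.3, 25.8, 28.4 and 30.2 in JZL184. The 3 groups were in this order without overlap, and the log2 fold change of JZL184 against SAP was 0.66 (SE 0.20, adjusted p in edgeR 0.136, in DESeq2 0.0349), under the fold change of 2.

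**Figure D3:**
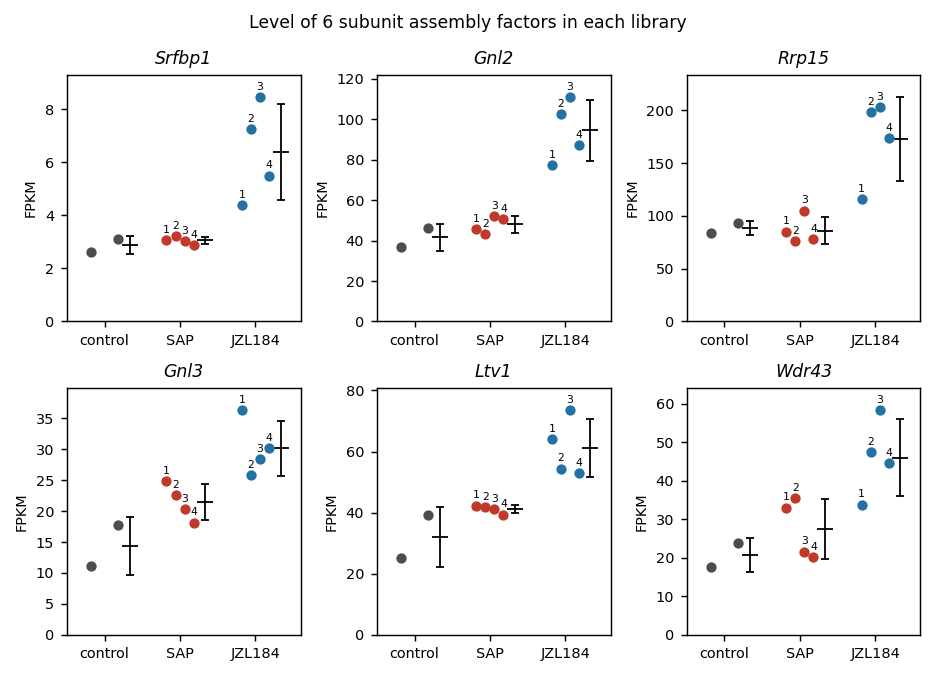
FPKM (vertical axes from 0) of 6 subunit assembly factors in each library, with the library number beside SAP and JZL184 points, and the mean with its SD (bar) to the right of each group; control libraries 1 and 2 are 1 point. JZL184 points lay above all SAP points for Srfbp1, Gnl2, Rrp15, Gnl3 and Ltv1, and JZL184 library 1 was among SAP for Wdr43.

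The cell cycle list, which marks dividing cells, went the other way. Its 20 genes summed to 334 to 416 FPKM in SAP and to 371, 225, 244 and 209 in JZL184 libraries 1 to 4, so JZL184 library 1 lay within the SAP range. Of the 20, 5 were lower at an unadjusted p below 0.05, with none higher, where 11.1% and 10.3% of all genes were. The mitotic activator Cdc20 was at -0.85 (SE 0.23, adjusted p in edgeR 0.113), and the DNA topoisomerase Top2a at -1.47 (SE 0.48, adjusted p 0.146). Cdc20 had 11.6 to 15.6 FPKM in SAP and 5.49 to 9.29 in JZL184, without overlap. Top2a had 13.1 to 60.2 and 6.35 to 21.2, with overlap. Of the 7 crypt and stem cell markers, 2 were lower and 0 higher at that level, with 6 fold changes negative and 1 positive. Their sum ran from 67.7 to 282 in SAP and from 11.4 to 73.4 in JZL184, with Lgr5 listed at 0 in 1 library. The spread of this sum came mostly from Olfm4, at 0.55 to 243 FPKM over all libraries, where no other of the 7 exceeded 15.98. Sox9 had 2.52 to 7.27 FPKM in SAP and 4.86 to 9.81 in JZL184, with overlap. In JZL184 against control, Sox9 was at 1.07 (SE 0.35, adjusted p in edgeR 0.107). There, 1 crypt marker was higher and 2 lower at that level. Epithelial markers overlapped, with sums of 10126 to 20693 in SAP and 8317 to 17463 in JZL184. Fibroblast markers had sums of 62.7 to 147 in SAP and 31.0 to 61.1 in JZL184, without overlap. The part of these cells in the fold changes of the assembly factors was not tested.

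The fold changes of other subunit factors moved either way when SAP libraries 1 and 2 were left out. Those of Utp15 and Brix1 came out larger, going from 0.30 to 0.95 and from 0.24 to 0.57. Those of Ppan, Nip7 and Rrp12 came out smaller. Ppan, a relative of a yeast large subunit factor, had 38.6, 32.0, 59.0 and 51.7 FPKM in SAP and 68.3, 82.9, 65.2 and 65.4 in JZL184, without overlap, and a log2 fold change of 0.79 (SE 0.30, adjusted p in edgeR 0.184) that was 0.42 without SAP libraries 1 and 2. Nip7, which binds the precursor RNA of the large subunit, had a log2 fold change of 0.66 (SE 0.28, adjusted p 0.220) with 11.2 to 16.7 FPKM in SAP and 14.6 to 22.8 in JZL184, of which library 1 lay among the SAP values, and came to 0.41 without both libraries. Rrp12, of the small subunit, was at 0.73 (SE 0.33, adjusted p 0.230) and at 0.30 without SAP libraries 1 and 2. The members of the PeBoW complex, which act together in large subunit processing, did not share a direction. Pes1 was at 0.81 (SE 0.40), Wdr12 at 0.46 (SE 0.26) and Bop1 at -0.38 (SE 0.24), and the unadjusted p of each was above 0.05.

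Polr1a was the only member lower at an unadjusted p below 0.05. It had 7.72, 7.86, 6.85 and 3.39 FPKM in SAP and 5.11, 2.15, 2.72 and 2.58 in JZL184. SAP library 4 lay within the JZL184 range, and the log2 fold change was -0.88 (SE 0.32, adjusted p in edgeR 0.175, exact permutation p 0.0571). The remaining RNA polymerase I genes were at -0.25 (SE 0.30) for Polr1b, 0.34 (SE 0.28) for Polr1c and 0.19 (SE 0.22) for Rrn3. Mybbp1a, a nucleolar regulator that binds the polymerase, was at 0.40 (SE 0.23).

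The negative fold changes of Noc3l and Ddx21 depended on SAP libraries 1 and 2. Noc3l had 5.41, 1.44, 2.72 and 3.52 FPKM in JZL184, with a log2 fold change of -1.17 (SE 0.58, adjusted p in edgeR 0.266) that turned to 0.28 without both libraries. Ddx21 had 16.9, 5.31, 9.89 and 10.2 in JZL184 and went from -0.81 (SE 0.59, adjusted p 0.427) to 0.81. Dkc1, at 0.79 (SE 0.48, adjusted p 0.343), came to 0.16 without them. Its SAP values were 93.8, 71.7, 216 and 260 FPKM and its JZL184 values 253, 342, 210 and 211, so JZL184 overlapped with SAP libraries 3 and 4 only. The deposited data placed Dkc1 on an unlocalized Y scaffold. SAP library 2 had 20 reads on the 3 Y-linked genes, but SAP library 1, also low in Dkc1, had 4665. The part of this placement in the Dkc1 values was not tested. Without SAP libraries 1 and 2, 17 members lay higher without overlap, where 15.8% of all genes did, and 3 lower, where 15.0% did.

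**Figure D4:**
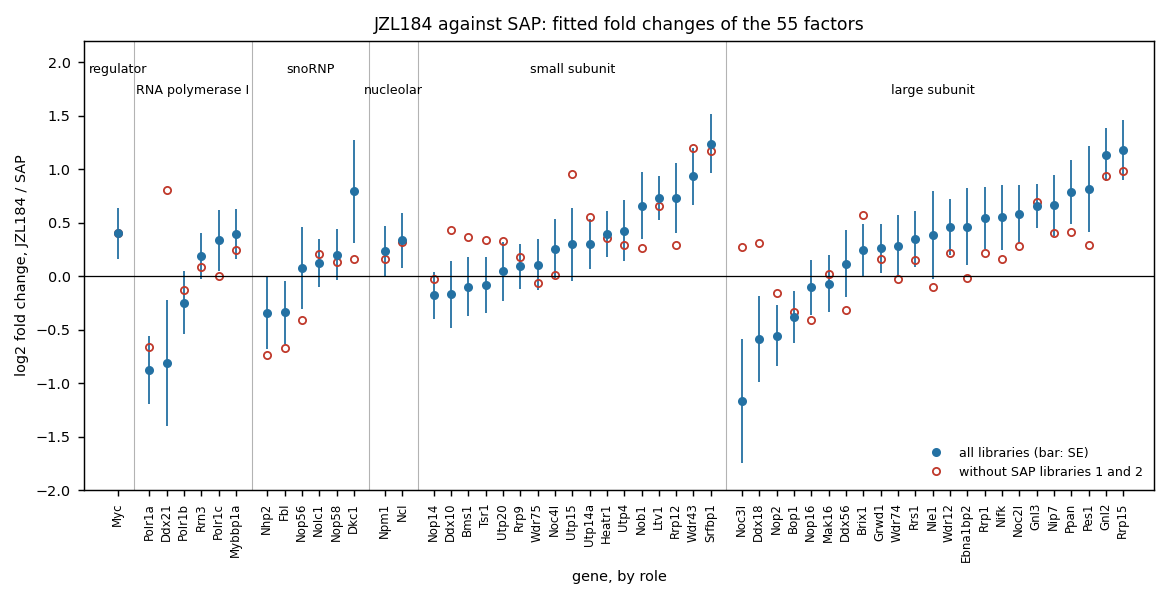
Fitted log2 fold change of JZL184 against SAP (vertical axis) for the 55 members in order within each role, with all libraries (filled, bars give the SE) and without SAP libraries 1 and 2 (open). Rrp15 and Gnl2 were the highest large subunit factors in both fits, Srfbp1 was the highest small subunit factor with all libraries and came after Wdr43 without the pair, and Ddx21 and Noc3l changed side of 0.

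Of the 6 snoRNP proteins, 3 (Nhp2, Fbl and Nop56) had every JZL184 value below both controls, and Nop58, Nolc1 and Dkc1 did not. Nhp2 had 85.4, 76.1, 46.8 and 46.5 FPKM, Fbl 56.9, 55.5, 37.9 and 40.1, and Nop56 120, 72.9, 59.9 and 55.3. Against SAP their log2 fold changes were -0.34 (SE 0.34), -0.34 (SE 0.29) and 0.08 (SE 0.38), with adjusted p of 0.568, 0.504 and 0.915 in edgeR. The JZL184 values of each overlapped with those of SAP. Nop58, at 0.20 (SE 0.24), Npm1 at 0.23 (SE 0.24) and Ncl at 0.34 (SE 0.26) had small fold changes, although Ncl was higher without overlap on normalized counts. In FPKM it had 1271 to 1602 in SAP and 1563 to 1700 in JZL184, which overlapped.

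Myc had 11.4, 6.13, 8.87 and 8.01 FPKM in JZL184 and a log2 fold change of 0.40 against SAP (SE 0.24, adjusted p in edgeR 0.333), with overlap. Myc binds the E-box, the letters CACGTG, which are the same on both strands. A window from 250 bases before to 50 bases after the start site was given by RefSeq (GRCr8, another build than that of the reads) for 49 members, and not for Gnl2, Bop1, Myc, Mak16, Wdr43 and Rrs1. The letters were in 18 of these 49 windows (36.7%), in 8.62% of the 13212 windows of genes tested in this comparison and in 6.42% of all 33469. By role they were in 9 of 19 windows of large subunit factors, 6 of 16 of small subunit factors, 2 of 6 of snoRNP proteins, 1 of 6 of RNA polymerase I genes and 0 of 2 of Ncl and Npm1. The windows of Rrp15, Ltv1, Gnl3 and Rrp12 are shown because these 4 of the 9 members higher at an unadjusted p below 0.05 held the letters, set here in capitals.
Rrp15: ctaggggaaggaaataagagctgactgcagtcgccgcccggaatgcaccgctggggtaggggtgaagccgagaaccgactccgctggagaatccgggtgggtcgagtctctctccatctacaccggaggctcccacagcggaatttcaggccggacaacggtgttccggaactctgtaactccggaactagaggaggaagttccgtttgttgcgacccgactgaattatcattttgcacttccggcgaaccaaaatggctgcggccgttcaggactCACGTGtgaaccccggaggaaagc
Ltv1: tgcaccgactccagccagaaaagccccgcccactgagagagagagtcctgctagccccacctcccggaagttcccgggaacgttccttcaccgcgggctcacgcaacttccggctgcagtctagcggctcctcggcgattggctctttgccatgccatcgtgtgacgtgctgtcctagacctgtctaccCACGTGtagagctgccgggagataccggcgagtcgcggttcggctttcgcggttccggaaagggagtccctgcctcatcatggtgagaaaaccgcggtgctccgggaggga
Gnl3: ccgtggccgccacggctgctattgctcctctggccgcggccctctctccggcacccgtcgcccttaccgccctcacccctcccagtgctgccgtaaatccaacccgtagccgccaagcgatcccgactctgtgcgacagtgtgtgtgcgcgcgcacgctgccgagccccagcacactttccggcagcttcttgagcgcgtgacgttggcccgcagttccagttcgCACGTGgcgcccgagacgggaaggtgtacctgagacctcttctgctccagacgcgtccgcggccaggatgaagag
Rrp12: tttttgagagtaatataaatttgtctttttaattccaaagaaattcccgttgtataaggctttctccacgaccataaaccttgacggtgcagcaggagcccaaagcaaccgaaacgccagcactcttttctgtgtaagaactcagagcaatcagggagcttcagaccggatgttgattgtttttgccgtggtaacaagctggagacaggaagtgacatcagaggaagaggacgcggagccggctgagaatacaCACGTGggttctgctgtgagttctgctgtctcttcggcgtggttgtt

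These windows lie on the minus strand at chr13:100830763-100831062 for Rrp15, chr1:9398508-9398807 for Ltv1, chr16:6219733-6220032 for Gnl3 and chr1:250655269-250655568 for Rrp12. Counted from the start site as 1, the first letter of the motif was at 27 in Rrp15, at -61 in Ltv1, at -25 in Gnl3 and at 4 in Rrp12. Members with the letters had a median log2 fold change of 0.41 in JZL184 against SAP (n = 18, from -1.17 to 1.18) and members without had 0.24 (n = 31, from -0.88 to 1.24), so the ranges were nearly the same. Srfbp1, the member with the highest fold change, Ppan and Nip7 had windows without the letters. A match is a description of these letters, and Myc binding was not measured.

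JZL184 was last compared with control. This comparison holds the drug, the surgery, the bile salt and the pancreatitis together and shares its libraries with those above. The subunit assembly factors Gnl2, Wdr43, Srfbp1 and Gnl3 were again higher, at log2 fold changes of 1.04 to 1.16. The snoRNP proteins Nhp2, Fbl and Nop56 were lower, at -1.34 to -0.92. Of the 17 small subunit factors 4 had negative fold changes, and of the 23 large subunit factors 7 did, with medians of 0.36 and 0.14. In edgeR 0 members were called, where 2.16% of the 15916 genes tested were. DESeq2, which called 10.8% of all genes, called 4 members, Gnl2, Wdr43 and Gnl3 as higher and Nhp2 as lower. At an unadjusted p below 0.05 in edgeR 10 members were higher, beside 13.8% of all genes, and 3 lower, beside 12.5%. The median log2 fold change was 0.17, beside 0.08 over all genes, with 37 of 55 positive. All JZL184 libraries lay above both controls for 16 members, beside 18.9% of all genes, and below both for 5, beside 19.3%. Those 5 were Nhp2, Fbl and Nop56 and the large subunit factors Ddx56 and Nop16. The number lower was 13 without control library 3, beside 28.5% of all genes, and 8 without JZL184 library 1, beside 26.4%, and in this latter case edgeR called 6 members, beside 12.0% of all genes. In both counts the share of the members was above that of all genes on the higher side and below it on the lower side, and these differences were not tested.

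Nhp2 had the lowest fold change. Its 4 JZL184 values of 46.5 to 85.4 FPKM stood against 161 and 155 in the controls, with no overlap, at a log2 fold change of -1.34 (SE 0.34) and an adjusted p of 0.0701 in edgeR and 0.0157 in DESeq2. Fbl was at -0.96 (SE 0.29, adjusted p in edgeR 0.0968, in DESeq2 0.0689) and Nop56 at -0.92 (SE 0.34, adjusted p 0.138 and 0.112), both without overlap. DESeq2 called neither Fbl nor Nop56, and limma-voom, which called 18.3% of all genes, called both. With the length offsets the log2 fold changes of Nhp2, Fbl and Nop56 were -1.05, -0.79 and -0.82. Within the same particles Nop58 was at 0.33 (SE 0.32) and Dkc1 at -0.19 (SE 0.34), so the partners in a particle differed in direction or size, and that difference was not tested.

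**Figure D5:**
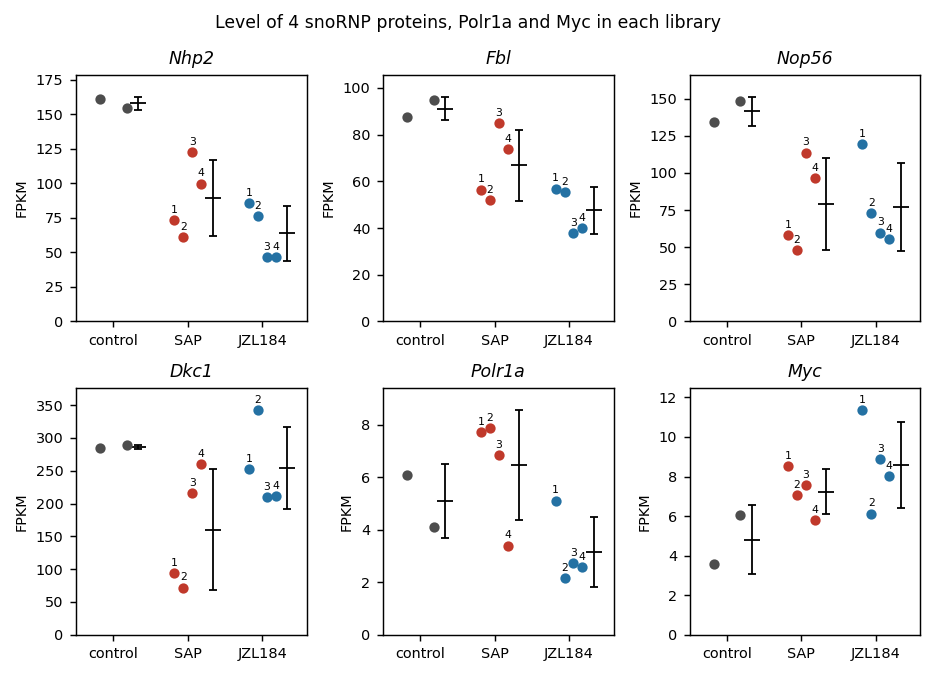
FPKM (vertical axes from 0) of the snoRNP proteins Nhp2, Fbl, Nop56 and Dkc1, of Polr1a and of Myc in each library, with the library number beside SAP and JZL184 points and the mean with its SD (bar) to the right of each group. All JZL184 points of Nhp2, Fbl and Nop56 lay below the controls, Dkc1 was lowest in SAP libraries 1 and 2, and Polr1a was low in JZL184 libraries 2 to 4 and SAP library 4.

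The sum of the epithelial markers was lower beside Nhp2, Fbl and Nop56. They summed to 27036 and 27705 FPKM in the controls and to 8317 to 17463 in JZL184, with no overlap. Of the 10, 4 were lower and 0 higher at an unadjusted p below 0.05, where 12.5% and 13.8% of all genes were. The fold changes of 2 were positive, and Cdh1 had 106 and 118 FPKM in the controls and 151 to 194 in JZL184. Keratin 19 (Krt19) was at -1.59 (SE 0.30, adjusted p in edgeR 0.0418) and fell by the criteria of the test. In SAP the same sums were 10126 to 20693 and were also below the controls. The cell cycle genes summed to 460 and 468 FPKM in the controls and to 209 to 371 in JZL184. Of these 20 genes 11 were lower at that level and 0 higher, and Cdc20 fell (log2 fold change -1.77, SE 0.29, adjusted p 0.0283). The part of epithelium and of dividing cells in the levels of Nhp2, Fbl and Nop56 was not tested.

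Gnl2 was at 1.16 (SE 0.30, adjusted p in edgeR 0.0738, in DESeq2 0.0238), Wdr43 at 1.13 (SE 0.32, adjusted p 0.0881 and 0.0394), Gnl3 at 1.04 (SE 0.29, adjusted p 0.0832 and 0.0434) and Srfbp1 at 1.13 (SE 0.35, adjusted p 0.100 and 0.0602). Ltv1 followed with 0.90 (SE 0.28, adjusted p in edgeR 0.101) and Rrp15 with 0.94 (SE 0.34, adjusted p 0.133). In SAP against the controls Gnl3 was at 0.42 (SE 0.29, adjusted p in edgeR 0.494) and Ltv1 at 0.20 (SE 0.27, adjusted p 0.705), and leaving out 1 sample moved them to between 0.17 and 0.71 and to between -0.028 and 0.47. Myc had a log2 fold change of 0.80 (SE 0.32, adjusted p in edgeR 0.164), and all JZL184 values were above both controls, 6.13 beside 6.06 FPKM at the closest. Polr1a was at -0.77 (SE 0.36), Polr1b at -0.23 (SE 0.34) and Rrn3 at 0.37 (SE 0.27), each above 0.05 in the unadjusted p, and Ddx21 was at 0.99 (SE 0.44, adjusted p 0.196). Npm1 and Ncl were at 0.45 (SE 0.29) and 0.27 (SE 0.29).

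The other RNA polymerase I, subunit and snoRNP factors, listed apart from the members, were read in the same fits, and 0 of them were called by edgeR in any of the 3 comparisons. DESeq2 called 0 of them in SAP against control, 4 in JZL184 against SAP (Taf1d, Znhit3 and Rpp40 as higher, Top1 as lower) and 4 in JZL184 against control (Taf1d, Taf1a and Polr1f as higher, Ruvbl1 as lower), where it called 1.23%, 6.98% and 10.8% of all genes. In JZL184 against SAP, 5 of 13 other RNA polymerase I genes were higher and 2 lower at an unadjusted p below 0.05, with a median log2 fold change of 0.56. Among all genes, 10.3% were higher and 11.1% lower at that level in edgeR. Taf1d, a subunit of the promoter selectivity factor, was at 1.20 (SE 0.24, adjusted p in edgeR 0.0851, in DESeq2 0.000819), and DNA topoisomerase Top1, which unwinds DNA ahead of polymerases, was at -2.09 (SE 0.61, adjusted p 0.127). Top1 had 33.2 to 273 FPKM in SAP and 15.9 to 54.7 in JZL184, which overlapped, beside 36.5 and 49.7 in the controls. Of 42 other small subunit factors 5 were higher and 3 lower, and of 39 other large subunit factors 6 were higher and 1 lower, with medians of 0.24 and 0.29. Among the large subunit factors the export adapter Nmd3 was at 0.85 (SE 0.25, adjusted p 0.128). Of 18 other snoRNP factors 3 were higher and 0 lower, with a median of -0.16, and the snoRNP assembly factor Znhit3 was at 1.1 (SE 0.28, adjusted p 0.100).

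In SAP against control, 1 of 13 other RNA polymerase I genes and 1 of 39 other large subunit factors were higher and 0 lower, and in the other small subunit and snoRNP lists 0 were at an unadjusted p below 0.05. Among all genes, 5.69% were higher and 3.4% lower at that level. In JZL184 against control, 5 of 13 other RNA polymerase I genes, 3 of 42 small subunit, 8 of 39 large subunit and 2 of 18 snoRNP factors were higher, and 0, 1, 1 and 3 were lower. Beside these, 13.8% of all genes were higher and 12.5% lower. Taf1d was at 1.81 (SE 0.39, adjusted p in edgeR 0.0538). The snoRNP assembly helicases Ruvbl1 and Ruvbl2 were at -1.14 (SE 0.31, adjusted p 0.0806) and -0.96 (SE 0.26, adjusted p 0.0809).

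The genes of the ribosome's own proteins were read beside the factors that assemble them. The 95 cytosolic ribosomal protein genes summed to 95643 and 102190 FPKM in the controls, to 49358, 49349, 98404 and 138227 in SAP and to 112929 to 178990 in JZL184. SAP libraries 1 and 2 were lowest and JZL184 overlapped with SAP library 4. Against SAP, 90 of the 91 tested were positive, with a median log2 fold change of 0.85. At an unadjusted p below 0.05, 20 were higher and 0 lower, beside 10.3% and 11.1% of all genes, with 0 called by edgeR. Many of these genes are short and have near-identical copies, so reads of one may have been counted for another. Of the 20 genes of the Myc network, 1 was higher and 1 lower in JZL184 against SAP, the polyamine enzyme Odc1 at 0.92 (SE 0.31, adjusted p in edgeR 0.161) and the Myc antagonist Mxd1 at -1.08 (SE 0.46, adjusted p 0.214). Odc1 had 55.8 to 103 FPKM in SAP and 96.25 to 171 in JZL184. Mxd1 had 62.3 to 261 and 43.3 to 90.45, so both genes overlapped between the groups. Of the 7 tested genes of nucleolar stress and p53, 3 were higher and 1 lower, and the stress sensor Sesn2 was at -0.96 (SE 0.26, adjusted p 0.110). Of the 15 genes of the exosome and precursor decay 1 was higher and 1 lower.

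Of the 55 members, 23 overlapped another gene in the RefSeq table, among them Gnl2 with Dnali1, Gnl3 with Pbrm1 and Nop56 with Idh3b. Ncl, Npm1, Nop58 and Wdr43 overlapped genes without a name of their own or small nucleolar RNA genes. Whether the strand was used in counting is not given in the sources used here, so reads of overlapping genes could not be told apart.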

How the data were processed

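RNA of rat ileum was sequenced by the study with a stranded library kit and paired-end reads. FASTX-Toolkit served the authors for trimming, and they aligned reads to mRatBN7.2 with HISAT2 and counted those that aligned uniquely to a gene. These counts were deposited without normalization. The authors also deposited FPKM, which is scaled by gene length and library size. The counting tool, its strand setting and the annotation were not stated, that is, not given in the sources used here. In what follows, samples were grouped by the treatment in the labels.

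Reads of control libraries 1 and 2 were summed and their FPKM averaged, because their counts agreed nearly within sampling noise. All genes that passed edgeR's filter on low counts (minimum count 10) were scaled by TMM and compared for each pair of groups by the quasi-likelihood test (edgeR 4.0.16, run in R 4.3.3), with Benjamini-Hochberg adjustment over all genes tested. A call needed an adjusted p below 0.05 and more than 2 times, or less than 0.5 times, the level of the other group, as in the study. The SE is the log2 fold change over the root of the F statistic. DESeq2 1.42.0, which the study used, limma-voom 3.58.1 with sample quality weights, other filters and scalings, all 3 groups in 1 fit, separate control libraries, the replicate number as a block, offsets for gene length (span 0.3), and leaving out libraries were alternatives. The scripts were checked on simulated counts. Single members were compared in FPKM with two-sided exact permutation tests, unadjusted, and no list was tested as a set. Tables and plots were made in Python 3.11.15 (pandas 2.3.3, numpy 2.4.6, matplotlib 3.10.9).

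The 55 members, their roles and the other lists were chosen with earlier results of these data known. Named in each comparison were Myc, Ncl, Npm1, Fbl, Polr1a, Polr1b, Rrn3, the study's Rrp15, Srfbp1 and Gnl2, the 3 members with the smallest p in each role of 4 or more, the highest and the lowest fold change, and from other lists 2 genes each with the smallest p. Further members, such as Ppan, Nip7, Pes1, Wdr12, Bop1, Nop58 and Dkc1, and the other factors Rpp40, Taf1a and Polr1f, were added after the values were seen. Start site windows were matched by symbol from RefSeq GRCr8, another build than that of the reads, so their positions were not set against the data.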

Additional observations from a re-analysis of the deposited data

Results flagged for a closer look

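For each member named in the report, the 4 SAP and the 4 JZL184 values of FPKM were searched for a library far from the other 3 of its group, by its gap to the nearest library over the range of the group. In 3 of 50 groups searched this passed Dixon's 95% critical value for 4 samples, and chance alone passes about 1 in 20. Polr1b, a catalytic subunit of RNA polymerase I, was low in SAP library 4, at 1.07 FPKM where the nearest had 1.95 (gap over range 0.863). Mybbp1a was low in JZL184 library 4, at 36.2 FPKM where the nearest had 46.0 (0.842). Ncl was high in JZL184 library 3, at 1700 FPKM where the nearest had 1578 (0.891), a small step on its level.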

How the results depend on the processing

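The count of members called by edgeR was 0 in each comparison and depended on the tool. For SAP against control it was 0 under every setting but DESeq2 with control libraries 1 and 2 separate, which called 2 (Ddx21 higher, Nhp2 lower) and 8.46% of all genes. For JZL184 against SAP it was 3 in DESeq2 (6.98% of all genes), 4 in limma-voom (4.57%), 2 with all 3 groups in 1 fit (1.25%) and 0 to 4 when libraries were left out in turn (0.0% to 4.21%). For JZL184 against control it was 4 in DESeq2 (10.8% of all genes), 8 in limma-voom (18.3%), 1 without the low-count filter (3.93%), 7 with separate controls (18.1%), 6 with DESeq2 and separate controls (19.4%), and 0 to 6 when libraries were left out (0.0% to 12.0%). The replicate number as a block needed separate controls, so it is read against those 7, and was 4 with the block (9.65%) and 4 with the length offsets as well (8.33%). Of the other RNA polymerase I, subunit and snoRNP factors edgeR called 0. In JZL184 against SAP limma-voom called 3 of them (4.57% of all genes). In JZL184 against control it called 8 (18.3%), and separate controls gave 10 (18.1%). The samples share only a number, since not every sample correlated best with its own number, so the block is given here alone. The median log2 fold change of JZL184 against control was 0.27 with length offsets, 0.26 with block and offsets, and 0.13 to 0.25 when libraries were left out. Of members without overlap, SAP against control had 5 higher on FPKM (13.4% of all genes), 8 higher without SAP libraries 1 and 2 (18.1%), and 1 to 12 higher (12.4% to 28.1%) and 9 to 19 lower (12.8% to 26.9%) when libraries were left out. JZL184 against SAP had 6 higher on FPKM (4.7%), 17 higher (15.8%) and 3 lower (15.0%) without SAP libraries 1 and 2, and 11 to 17 higher (7.09% to 13.3%) and 0 to 4 lower (6.38% to 13.1%) when libraries were left out, and JZL184 against control had 5 to 13 lower (20.8% to 28.5%). Counts and shares were ranged apart, so their ends need not share a fit. In SAP against control, 1 higher went with 15.6%. In JZL184 against SAP, 4 lower went with 9.62% and 1 lower with 13.1%. The ratio of the summed level in FPKM was 0.971 for SAP against control and 1.16 for JZL184 against SAP. On counts scaled by library size and composition (TMM) these were 0.885 and 1.29.

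Signs of small fold changes turned in SAP against control. Ncl was at 0.0040 with the block, 0.035 with length offsets and 0.10 with both. Polr1a was at -0.28 and -0.27 with the offsets alone and with the block, and -0.090 without SAP libraries 1 and 2. Polr1b was at -0.14 and -0.077 with the offsets alone and with the block, -0.0018 in DESeq2 with separate controls and -0.079 without SAP libraries 1 and 2. Rrn3 was at -0.059 with block and offsets, and Rrp15 at 0.13 with offsets and 0.27 with both. When libraries were left out in turn, Gnl2 was at -0.029 to 0.15, Ncl at -0.049 to 0.0060, Polr1a at -0.18 to 0.32 and Polr1b at -0.13 to 0.19, and without control libraries 1 and 2 they were at -0.038, -0.075, 0.53 and 0.25. Without SAP libraries 1 and 2, Ddx21 came to 0.81 and Noc3l to 0.28 in JZL184 against SAP. The cause was not tested in any of these. Of the 25 members named by the rule, no other turned its sign in the fit for which it was named. Depth was 117 reads or more for each member in each library, and its part in these values was not tested.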

Other observations

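Library by library, the members spread unevenly around the controls. In SAP libraries 1 and 2, 17 and 14 of the 55 had over 3/2 of their mean control FPKM and 12 and 15 had under 2/3 of it. In SAP libraries 3 and 4 these numbers were 1 and 0 above, and 0 and 4 below. JZL184 libraries 1 to 4 had 19, 10, 15 and 13 members above and 2, 10, 7 and 4 below. The same numbers were not counted over all genes, so they cannot be read as particular to the members. The summed level of Ncl and Npm1 was 1482 and 1811 FPKM in the controls, 1694 to 2090 in SAP and 1944 to 2210 in JZL184.

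The inflammatory cells of the tissue were read from marker lists in the same libraries. The 7 neutrophil markers summed to 2.23 and 2.99 FPKM in the controls, 83.8, 12.0, 53.1 and 11.6 in SAP and 67.2, 251.1, 19.1 and 36.0 in JZL184, above the controls in all 8. S100a8, a calcium-binding protein of neutrophils, had a log2 fold change of 7.35 in JZL184 against control (SE 1.65, adjusted p in edgeR 0.0594, in DESeq2 3.9e-05). T cell markers summed to 140 and 160 FPKM in the controls, 51.9 to 157 in SAP and 98.1 to 126 in JZL184. No relation of the members with these sums was tested.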
